A study of Mus musculus with 24 samples.

Results

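Interferon-stimulated genes were described as a group in whole hearts of adult male mice. The group was a list of 45 gene symbols, from nucleic acid sensors and transcription factors to antiviral effectors, interferon-induced GTPases and chemokines. Members were found by matching the symbols to the annotated probe sets of the array, and each of the 42 measured members had 1 probe set among 22139 genes and unnamed probe sets. Of these, 39 had a mean log2 value above 4 in all 4 groups and were tested within 19801 features. Cxcl10, Oas3 and Oasl1 had group means below 4 throughout and were not tested. Gbp5, Gbp6 and Ifi44 had no named probe set in the annotation used and were not analysed here.

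RNA of 24 mice was hybridised to Clariom S mouse arrays, 1 array per heart, with 6 mice in each of 4 groups. Wild-type females of the C57/BL6NCr strain were mated to heterozygous males that carried the R384C allele of the thyroid hormone receptor TRα1, which lowers the affinity of the receptor for triiodothyronine (T3). The offspring were wild-type or heterozygous (TRα1+/m), with the mutation in all cells rather than in the heart alone. T3 at 0.5 mg/L was added to the drinking water of the treated mothers, beginning on embryonic day 12.5 and ending on day 18.5 according to the labels, and all mothers had 0.01% bovine serum albumin in their water. The methods of the study name an earlier last day of treatment than the labels do. No offspring received T3 itself, and hearts were taken at an age of 4 to 5 months from animals housed at 22 °C. The groups are called untreated wild-type, untreated TRα1+/m, T3-exposed wild-type and T3-exposed TRα1+/m, after the treatment of the mother. The sources used here do not say which mice shared a litter, so whether the spread between mice covers that between litters is not known. Because T3 was given to mothers, littermates would not be independent in the maternal T3 comparisons, and p values could then be too small.

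Type I interferons are secreted when cells sense foreign or misplaced nucleic acids. They act through a receptor whose signal leads to binding of a factor that holds STAT2 and IRF9 at the interferon-stimulated response element (ISRE) of target promoters. Interferon gamma acts at gamma-activated sequences (GAS) and through IRF1. In a whole heart these genes can be transcribed in cardiomyocytes, endothelial cells, fibroblasts and resident macrophages, and interferon-stimulated genes have a basal level without infection.

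Arrays had medians of 6.31 to 6.38 on the log2 scale after normalisation, no 2 of them were identical, and correlations between arrays across features were 0.973 to 0.990. The 8 cardiomyocyte markers averaged 18.4 to 18.7 in every mouse, near the top of the range, as the labelled tissue requires. Along the first principal component, 5 arrays stood apart (mouse 4 of untreated TRα1+/m, mice 14 and 15 of T3-exposed wild-type, and mice 16 and 17 of T3-exposed TRα1+/m mice). Mouse numbers in the labels fell below 20 or above 30, in unequal shares of the groups. All 5 arrays that stood apart had numbers below 20. Genotype calls of members, within or over the maternal treatments, that changed without these 5 arrays are given both ways. Maternal T3 differences, the interaction, marker levels, other gene lists and correlations are given with all arrays.

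Promoters are shown for the 5 members with the lowest p values for genotype over both treatments, because the differences of these members were the firmest. RefSeq promoters (GRCm38.p6, 250 bases before to 50 after the annotated start) matched 31 of the 42 measured members. The ISRE was searched as GAAA, any 2 bases and GAAA again, and the GAS as TTCNNNGAA, on both strands, and matches to either are in capitals. The windows, each 5′ to 3′ along the gene's strand, were chr3:142559794-142560093 (plus strand) for Gbp3, chr12:26456403-26456702 (minus) for Rsad2, chr3:142620413-142620712 (plus) for Gbp2, chr2:62646206-62646505 (minus) for Ifih1 and chr5:92328030-92328329 (minus) for Cxcl9.
Gbp3: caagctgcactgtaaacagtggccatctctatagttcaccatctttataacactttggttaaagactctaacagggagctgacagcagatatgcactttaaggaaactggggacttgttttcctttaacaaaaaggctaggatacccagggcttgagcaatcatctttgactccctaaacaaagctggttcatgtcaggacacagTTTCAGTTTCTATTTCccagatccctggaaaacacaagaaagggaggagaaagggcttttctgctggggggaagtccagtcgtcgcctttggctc
Rsad2: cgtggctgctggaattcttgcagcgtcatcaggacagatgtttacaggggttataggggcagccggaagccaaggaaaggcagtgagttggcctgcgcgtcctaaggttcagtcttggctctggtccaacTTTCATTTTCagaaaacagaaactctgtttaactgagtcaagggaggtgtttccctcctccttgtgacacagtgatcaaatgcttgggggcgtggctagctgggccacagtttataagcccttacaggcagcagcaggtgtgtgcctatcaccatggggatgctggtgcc
Gbp2: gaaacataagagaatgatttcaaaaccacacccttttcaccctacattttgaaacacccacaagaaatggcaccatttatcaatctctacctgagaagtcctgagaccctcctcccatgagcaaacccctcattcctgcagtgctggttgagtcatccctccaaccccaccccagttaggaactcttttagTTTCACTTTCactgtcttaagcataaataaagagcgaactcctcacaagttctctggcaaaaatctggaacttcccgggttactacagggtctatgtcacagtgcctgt
Ifih1: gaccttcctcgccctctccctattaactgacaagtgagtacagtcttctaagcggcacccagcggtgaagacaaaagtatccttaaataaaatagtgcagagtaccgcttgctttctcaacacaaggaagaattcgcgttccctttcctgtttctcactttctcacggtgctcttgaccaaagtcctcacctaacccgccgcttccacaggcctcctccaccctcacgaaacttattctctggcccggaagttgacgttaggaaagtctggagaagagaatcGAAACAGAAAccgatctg
Cxcl9: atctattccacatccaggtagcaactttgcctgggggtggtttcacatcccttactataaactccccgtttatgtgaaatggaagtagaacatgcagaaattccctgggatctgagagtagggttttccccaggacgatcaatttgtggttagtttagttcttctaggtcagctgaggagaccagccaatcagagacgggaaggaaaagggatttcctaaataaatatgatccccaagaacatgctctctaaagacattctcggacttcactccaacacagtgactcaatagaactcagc
Gbp3 held 2 ISRE matches that overlap each other, beginning 45 and 39 bases before the start, and a separate annotated start of Gbp3 had none. The ISRE match began 59 bases before the start in Gbp2 and 120 bases before it in Rsad2, and in Ifih1 it lay just after the start. Cxcl9 held neither motif in its window. The ISRE was found in 18 of the 31 members (58.1%), against 3.99% of 27025 genes with promoters of the same length, and the GAS in 9 members (29.0%) against 9.55%. Among the 8 members with a promoter that passed for genotype over both treatments, 5 held the ISRE, 1 the GAS and 2 neither. Of the 20 other tested members with a promoter, 11 held the ISRE, 8 the GAS and 6 neither. A match is a match of letters only, and no binding was measured.

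Several interferon-stimulated genes were lower in TRα1+/m hearts, and none was higher by the test used. Over both treatments 10 of 39 members fell (25.6%), where 3.7% of all tested features fell and 2.59% rose, with an adjusted p under 0.05 in limma after Benjamini-Hochberg adjustment over all 19801 features. They were the chemokine gene Cxcl9, the GTPase genes Gbp3 and Gbp2, the antiviral genes Rsad2, Rtp4 and Ifit3, the RNA sensor gene Ifih1, the transcription factor gene Irf1, and the ADP-ribosylation and ubiquitin genes Parp14 and Dtx3l. At an unadjusted p under 0.05, 20 members fell (9.58% of all features fell) and 0 rose (8.29% rose). The median change of the 39 members was -0.35 on the log2 scale, against -0.0064 for all tested features, and 38 of the 39 changes were negative. Without the 5 arrays that stood apart, 12 members fell, and the share of all features in that fit is not given here. Fewer cells of a type and less RNA per cell cannot be told apart in a whole-heart sample.

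**Figure D1:**
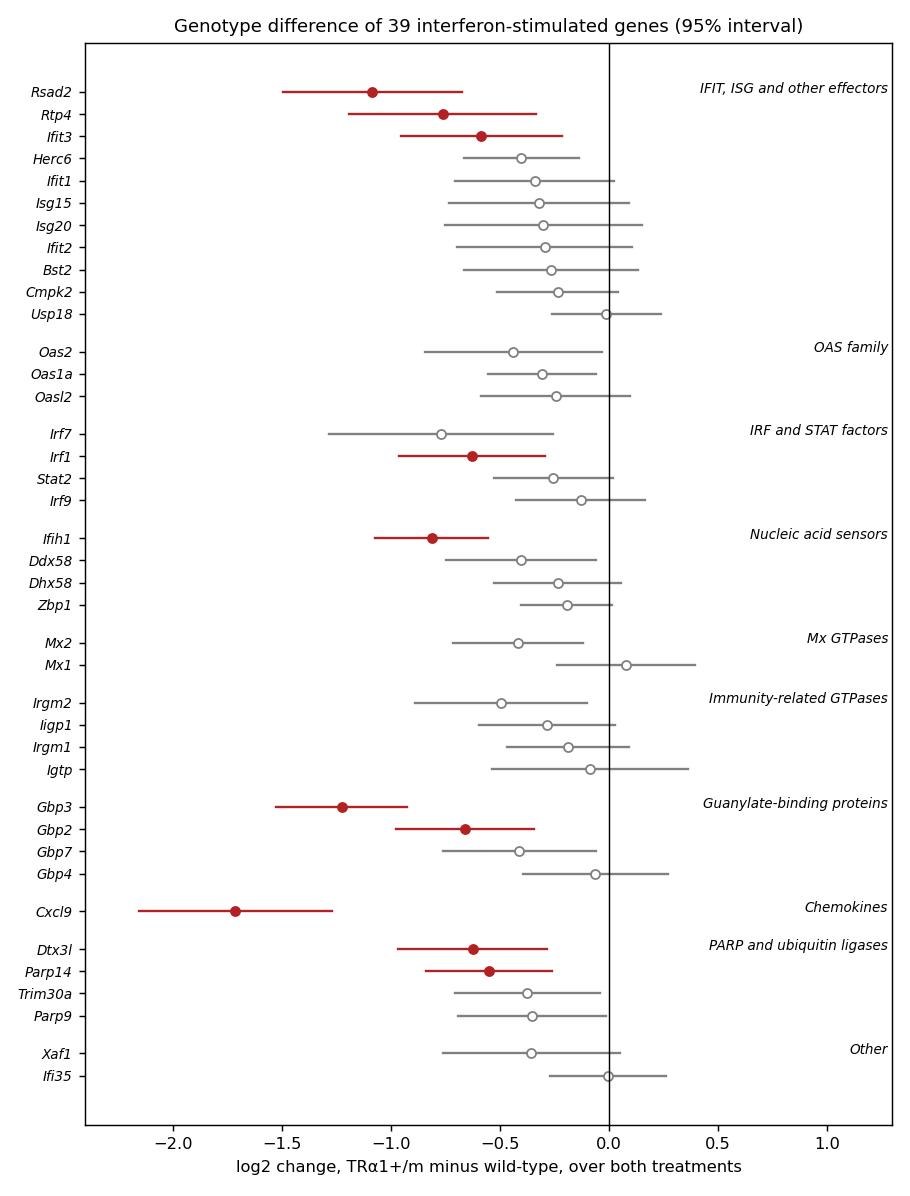
Genotype difference (log2, TRα1+/m minus wild-type over both treatments, x axis) of the 39 tested members, grouped by role, with 95% intervals from limma. Filled red points mark the 10 members with an adjusted p under 0.05, all of them to the left of 0, and Mx1 is the only point to the right of it.

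Among the 4 nucleic acid sensor genes, Ifih1 fell and 3 did not pass. Ifih1 encodes MDA5, a cytosolic sensor of long double-stranded RNA. Its log2 values, as the lowest, median and highest of 6 mice, were 9.25, 9.98 and 10.40 in untreated wild-type and 8.86, 9.11 and 9.40 in untreated TRα1+/m mice. Ifih1 in T3-exposed mice lay at 9.43, 9.91 and 10.20 in wild-type and at 8.55, 9.21 and 9.39 in TRα1+/m animals. The T3-exposed genotypes did not overlap, and in untreated mice the mutant was higher in 1 of 36 pairs. The change was -0.85 ± 0.18 (SE) without T3 (adjusted p = 0.0083, limma), -0.78 ± 0.18 after T3 (adjusted p = 0.0132) and -0.81 ± 0.13 over both treatments (adjusted p = 8.09e-05), which is 1.76-fold lower. Ddx58, which encodes the RNA sensor RIG-I, had a change of -0.40 ± 0.17 over both treatments (adjusted p = 0.179), with -0.77 in untreated and -0.04 in T3-exposed mice. Its change over both treatments passed without the 5 arrays that stood apart (-0.50, adjusted p = 0.00837) and with label numbers above 30 alone (-0.48, adjusted p = 0.0362). With the label number range as a block Ddx58 did not pass (-0.37, adjusted p = 0.167, limma). Dhx58, a RIG-I-like helicase, and Zbp1, a sensor of Z-form nucleic acids, had changes of -0.24 and -0.19 that did not pass. Dhx58 had group means of 4.62 to 5.12, not far above the filter of 4.

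Of the 4 transcription factor genes, Irf1 fell. Irf1 is a rapid interferon gamma target whose product activates many of the other members. It lay at 8.37, 8.95 and 9.14 in untreated wild-type and at 7.48, 8.13 and 8.87 in untreated TRα1+/m mice. Irf1 in T3-exposed mice lay at 8.47, 9.09 and 9.64 in wild-type and at 8.30, 8.45 and 9.42 in TRα1+/m mice, and the genotypes overlapped in both treatments. The change over both treatments was -0.63 ± 0.16 (adjusted p = 0.0168, limma), and neither treatment alone passed (-0.82, adjusted p = 0.0694, and -0.44, adjusted p = 0.425). The untreated change passed with the label number range as a block (-0.96, adjusted p = 0.0149), with label numbers above 30 alone (-1.11, adjusted p = 0.0186) and without the 5 arrays that stood apart (-0.98, adjusted p = 0.00221). Irf7, which drives type I interferon induction, had a change of -0.77 ± 0.25, with a larger standard error, that did not pass (adjusted p = 0.0661). It passed without the 5 arrays that stood apart (-0.96, adjusted p = 0.00561) and with label numbers above 30 alone (-1.16, adjusted p = 0.00666). With the label number range as a block Irf7 did not pass (-0.79, adjusted p = 0.061, limma). The genes of the STAT2 and IRF9 subunits of the factor that binds the ISRE had changes of -0.25 (Stat2) and -0.13 (Irf9) that did not pass.

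Antiviral effectors of the IFIT and ISG type had 3 falls among 11 tested genes. The largest was that of Rsad2, which encodes viperin, an enzyme that makes a chain-terminating nucleotide. Rsad2 lay at 8.40, 8.61 and 8.94 in untreated wild-type mice and at 6.48, 7.36 and 8.56 in untreated TRα1+/m mice, so that 1 mutant reached into the wild-type range. Rsad2 in T3-exposed mice lay at 7.67, 8.38 and 9.52 in wild-type and at 6.98, 7.42 and 8.17 in TRα1+/m mice. It was 2.12-fold lower over both treatments (-1.08 ± 0.20, adjusted p = 0.000709, limma). The fall passed in untreated mice (-1.20 ± 0.28, adjusted p = 0.0224) but not in T3-exposed mice (-0.97 ± 0.28, adjusted p = 0.0631). The T3-exposed change passed with the label number range as a block (-1.07, adjusted p = 0.0118) and with label numbers above 30 alone (-1.38, adjusted p = 0.0383). It did not pass without the 5 arrays that stood apart (-1.15, adjusted p = 0.089, limma). The untreated call was lost when any of 5 mice was left out (2 and 37 of wild-type, 4, 6 and 53 of TRα1+/m) and in mice with label numbers above 30 alone (-0.82, adjusted p = 0.287). Cmpk2, a nucleotide kinase gene beside Rsad2 on chromosome 12 with no coding gene between them, had a change of -0.24 ± 0.14 that did not pass (adjusted p = 0.386).

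Rtp4, which encodes a receptor-transporting protein, lay at 6.89, 7.31 and 7.91 in untreated wild-type and at 6.03, 6.39 and 7.19 in untreated TRα1+/m mice. Rtp4 in T3-exposed mice lay at 6.61, 7.39 and 8.43 in wild-type and at 6.10, 6.76 and 7.98 in TRα1+/m mice, with overlap in both treatments. The change over both treatments was -0.76 ± 0.21 (adjusted p = 0.0249, limma), and neither treatment alone passed (adjusted p = 0.19 and 0.282). Ifit3, of the tetratricopeptide-repeat family that binds foreign RNA, lay at 8.10, 8.69 and 9.52 in untreated wild-type and at 7.82, 8.14 and 8.39 in untreated TRα1+/m mice. Ifit3 in T3-exposed mice lay at 8.78, 9.21 and 9.78 in wild-type and at 8.13, 8.60 and 9.97 in TRα1+/m mice, where mouse 16 was above every wild-type mouse. Its change was -0.58 ± 0.18 with an adjusted p of 0.0491 (limma). The call was lost in 20 of 24 fits with 1 mouse left out. In separate fits it was lost without a filter on low values (adjusted p = 0.0534) and with label numbers above 30 alone (-0.69, adjusted p = 0.0543). Ifit3b, a near copy of Ifit3, had a change of -0.61 (adjusted p = 0.0766), and whether their probe sets read both RNAs was not tested.

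The other 8 effectors did not pass. Herc6, the ligase that attaches ISG15 to proteins in mice, was nearest (-0.40 ± 0.13, adjusted p = 0.061, limma), and the ubiquitin-like Isg15 itself had -0.32 ± 0.20. Isg15 had group means of 4.64 to 5.30, not far above the filter of 4. Ifit1 and Ifit2 had -0.34 and -0.30, the exonuclease gene Isg20 -0.30 and Bst2, which encodes the virus-tethering protein tetherin, -0.27. Usp18, whose product removes ISG15 and restrains the type I interferon receptor, had a change of -0.01 with a 95% interval of -0.26 to 0.24.

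The OAS and Mx genes had no member that passed, with all 5 tested genes but Mx1 at negative changes. OAS enzymes make oligoadenylates that activate RNase L. Oasl2, the OAS-family gene with the highest mean, lay at 7.88, 8.34 and 8.52 in untreated wild-type and at 7.38, 7.58 and 8.00 in untreated TRα1+/m mice. Oasl2 in T3-exposed mice lay at 7.45, 8.24 and 8.84 in wild-type and at 7.68, 8.22 and 9.54 in TRα1+/m mice. The change was -0.68 ± 0.24 in untreated mice (adjusted p = 0.182, limma) and 0.19 ± 0.24 in T3-exposed mice (adjusted p = 0.805). Oas2 and Oas1a had changes over both treatments of -0.44 and -0.31. The group means of Oas2, 4.12 to 4.88, lay just above the filter of 4, which limits what its change can show. Mx2, a dynamin-like antiviral GTPase, lay at 6.53, 6.94 and 7.33 in untreated wild-type and at 6.17, 6.33 and 6.98 in untreated TRα1+/m mice. Mx2 in T3-exposed mice lay at 5.95, 6.90 and 7.42 in wild-type and at 6.07, 6.41 and 6.81 in TRα1+/m mice. Its change over both treatments was -0.42 ± 0.15 (adjusted p = 0.0912, limma), and it passed with label numbers above 30 alone (-0.70, adjusted p = 0.0102). It did not pass without the 5 arrays that stood apart (-0.48, adjusted p = 0.0833) or with the label number range as a block (-0.43, adjusted p = 0.0758). Mx1, which is disrupted in C57BL/6 mice, had a change of 0.08 with an interval of -0.24 to 0.40.

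Of the 4 guanylate-binding protein genes tested, Gbp3 and Gbp2 fell. They encode large GTPases that are strongly induced by interferon gamma and act on the vacuoles of intracellular pathogens. Gbp3 lay at 7.97, 8.28 and 8.82 in untreated wild-type and at 6.61, 7.02 and 7.19 in untreated TRα1+/m mice, with a gap between the groups. Gbp3 in T3-exposed mice lay at 7.93, 8.28 and 9.19 in wild-type and at 6.87, 7.46 and 7.99 in TRα1+/m mice, with 1 of 36 pairs in which the mutant was higher. It was 2.34-fold lower over both treatments (-1.22 ± 0.15, adjusted p = 2.3e-06, limma), with -1.37 ± 0.21 in untreated (adjusted p = 0.00031) and -1.08 ± 0.21 in T3-exposed mice (adjusted p = 0.00258). The Gbp3 promoter is the one shown above with 2 ISRE matches.

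Gbp2 passed in untreated mice and not in T3-exposed mice. It lay at 7.98, 8.43 and 9.21 in untreated wild-type and at 6.77, 7.56 and 8.18 in untreated TRα1+/m mice, a change of -0.96 ± 0.22 (adjusted p = 0.0163, limma). Gbp2 in T3-exposed mice lay at 8.64, 8.80 and 9.03 in wild-type and at 8.24, 8.33 and 9.09 in TRα1+/m mice, where 5 of 6 mutants were below every wild-type mouse and mouse 16 was above them. That change was -0.36 ± 0.22 (adjusted p = 0.508), and over both treatments it was -0.66 ± 0.15 (adjusted p = 0.00724). The untreated call was lost without any of mice 57 and 58 of wild-type or mouse 4 of TRα1+/m, with only the untreated arrays in the fit (adjusted p = 0.053) and with label numbers above 30 alone (-0.95, adjusted p = 0.0529). Gbp7, which lies next to Gbp3 on chromosome 3, had no overlap between untreated genotypes (wild-type 10.30 to 11.03, mutant 9.42 to 10.19) and a change of -0.74 ± 0.24 that did not pass (adjusted p = 0.147), and its T3-exposed change was -0.08. Gbp4, on chromosome 5, had a change over both treatments of -0.06 with a 95% interval of -0.40 to 0.27. Guanylate-binding proteins resemble each other in sequence, and the part of shared probes was not tested.

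The 4 immunity-related GTPase genes, whose products coat or guard pathogen vacuoles after interferon gamma, had no member that passed. Iigp1 lay at 9.06, 9.73 and 9.98 in untreated wild-type and at 8.48, 9.19 and 9.50 in untreated TRα1+/m mice (-0.50 ± 0.21, adjusted p = 0.345, limma). Iigp1 in T3-exposed mice lay at 9.45, 9.77 and 10.37 in wild-type and at 9.30, 9.79 and 10.32 in TRα1+/m mice, with a change of -0.06 ± 0.21. Irgm2 had a change over both treatments of -0.49 ± 0.19 (adjusted p = 0.145), Irgm1 of -0.19, and Igtp of -0.09 with a 95% interval of -0.54 to 0.36.

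Parp14 and Dtx3l fell among the 4 ADP-ribosylation and ubiquitin genes. Parp14, an ADP-ribosyltransferase gene, lay at 7.96, 8.60 and 9.10 in untreated wild-type and at 7.69, 7.94 and 8.28 in untreated TRα1+/m mice. Parp14 in T3-exposed mice lay at 8.18, 8.33 and 9.16 in wild-type and at 7.91, 8.01 and 8.50 in TRα1+/m mice, for a change over both of -0.55 ± 0.14 (adjusted p = 0.0153, limma). Dtx3l, a ubiquitin ligase gene, lay at 8.00, 8.50 and 9.12 in untreated wild-type and at 7.40, 7.66 and 8.35 in untreated TRα1+/m mice. Dtx3l in T3-exposed mice lay at 7.74, 8.21 and 8.96 in wild-type and at 6.97, 7.83 and 8.44 in TRα1+/m mice, with a change over both of -0.62 ± 0.17 (adjusted p = 0.0199). For both genes the genotypes overlapped in each treatment, and neither treatment alone passed. Dtx3l lost its call in mice with label numbers above 30 alone (-0.63, adjusted p = 0.0644). Parp9, whose product pairs with that of Dtx3l and whose gene lies next to it on chromosome 16, had -0.35 ± 0.17 (adjusted p = 0.255), and Trim30a, of the tripartite-motif family, -0.37 ± 0.16 (adjusted p = 0.203).

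Cxcl9 had the largest genotype change of the 39 tested members. It encodes a chemokine that is induced by interferon gamma and attracts T cells and natural killer cells through the receptor CXCR3. Cxcl9 lay at 7.30, 7.76 and 8.50 in untreated wild-type and at 6.07, 6.28 and 6.83 in untreated TRα1+/m mice. Cxcl9 in T3-exposed mice lay at 7.82, 8.37 and 10.07 in wild-type and at 5.67, 6.51 and 7.42 in TRα1+/m mice. In neither treatment did the genotypes overlap. The fall was 2.68-fold in untreated mice (-1.42 ± 0.30, adjusted p = 0.00957, limma), 4.02-fold in T3-exposed mice (-2.01 ± 0.30, adjusted p = 0.000221) and 3.28-fold over both (-1.71 ± 0.21, adjusted p = 4.73e-06). In mice with label numbers above 30 alone the untreated change was -1.43 and did not pass (adjusted p = 0.0691). The related chemokine gene Cxcl10 had group means between 3.69 and 3.89, below the filter, and allows no comparison here.

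Of the remaining members, the pro-apoptotic factor gene Xaf1 had a change of -0.36 ± 0.20 (adjusted p = 0.368, limma) and Ifi35, an interferon-induced leucine zipper protein gene, had a change near 0. Ifi35 lay at 7.68, 8.01 and 8.11 in untreated wild-type and at 7.37, 8.07 and 8.26 in untreated TRα1+/m mice. Ifi35 in T3-exposed mice lay at 7.76, 8.05 and 8.44 in wild-type and at 7.45, 7.97 and 8.80 in TRα1+/m mice. Its change over both treatments was -0.0045 with a 95% interval of -0.27 to 0.26.

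**Figure D2:**
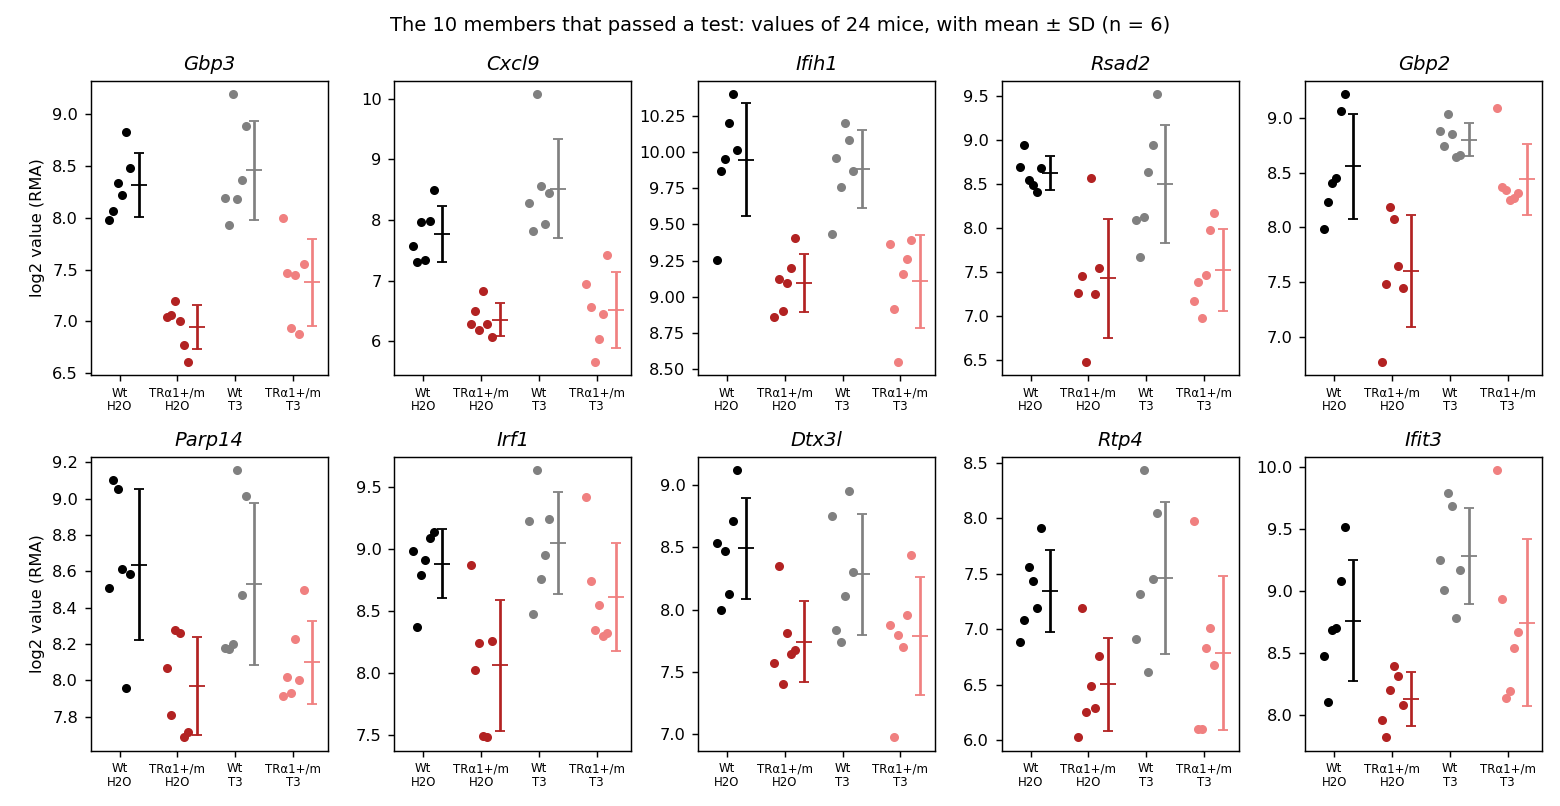
Log2 values (y axis) of the 10 members that passed for genotype over both treatments, with each mouse as a point and the mean ± SD of 6 mice beside it, for the 4 groups (x axis). Cxcl9 separates the genotypes in both treatments, while Ifit3, Irf1 and Rtp4 overlap in both.

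The study asked whether the receptor mutation acts during development, so the genotype difference was also set out within each maternal treatment. In untreated mice 5 members fell (12.8%, against 1.06% of all features), namely Cxcl9, Gbp3, Rsad2, Gbp2 and Ifih1, and 0 rose (0.566% of all features). In T3-exposed mice 3 fell (7.69%, against 1.66%), namely Cxcl9, Gbp3 and Ifih1, and 0 rose (1.13% of all features). At an unadjusted p under 0.05 in limma, 22 fell and 0 rose in untreated mice (6.58% and 4.94% of all features), and 10 fell and 0 rose in T3-exposed mice (7.37% and 6.33%). The median change was -0.43 in untreated and -0.31 in T3-exposed mice. These comparisons share no mice. Changes were negative for 34 of 39 members in untreated and 36 in T3-exposed mice, against 51.1% and 50.9% of all features. Of 39 members 32 had negative changes in both, 1 (Mx1) positive changes in both and 6 opposite signs. The change was the lower 1 in untreated mice for 28, Mx1 among them. Shares of all features for these joint counts are not given here. Without the 5 arrays that stood apart, 9 members fell in untreated and 2 in T3-exposed mice, with Irf1, Oasl2, Ddx58 and Gbp7 added in untreated and Ifih1 lost in T3-exposed mice (-0.80, adjusted p = 0.067, limma). Shares of all features without these arrays are not given here.

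**Figure D3:**
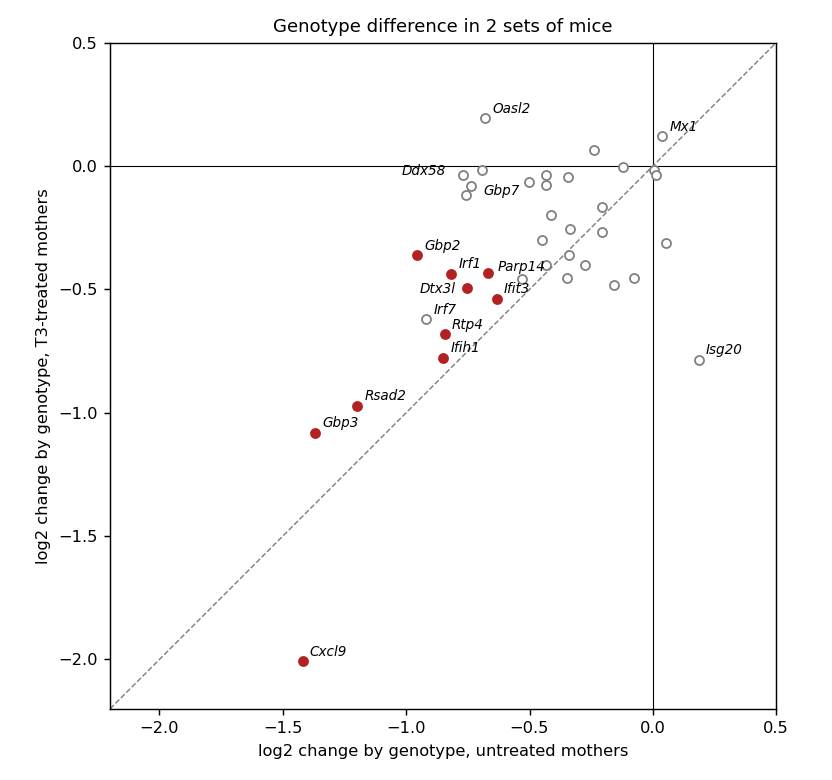
Genotype difference (log2) of the 39 members in offspring of untreated mothers (x axis) and of T3-treated mothers (y axis), with equal changes on the dashed line and red points for the 10 members that passed over both treatments. Cxcl9 lies at -1.42 and -2.01, Gbp3 at -1.37 and -1.08, and Oasl2 and Isg20 have opposite signs.

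Whether the genotype difference itself depended on maternal T3 was tested as an interaction, and no member passed, nor did any of the 19801 features (0%). At an unadjusted p under 0.05 in limma, 2 members were positive and 1 negative, against 2% and 2.19% of all features. Oasl2 had the largest positive interaction (0.87 ± 0.33), followed by Ddx58 (0.73 ± 0.33), and Isg20 had a negative one (-0.97 ± 0.44). Gbp2 had 0.59 with a 95% interval of -0.04 to 1.23, Gbp3 0.29 (-0.31 to 0.89) and Cxcl9 -0.59 (-1.47 to 0.30). With intervals this wide, the genotype differences of the members are shown neither to depend on maternal T3 nor to be independent of it.

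Maternal T3 moved no member past the threshold. In wild-type mice 0 of 39 passed, where 0.00505% of features did, and in TRα1+/m mice 0 of 39, where 0.0859% did. At an unadjusted p under 0.05 in limma, 5 members were higher and 1 lower in wild-type mice (6.03% and 4.95% of all features), and 10 were higher and 0 lower in TRα1+/m mice (3.98% and 4.32%). The median change was 0.15 in wild-type mice. Among the mutants it was 0.26, and 35 of 39 changes were positive. Over both genotypes 0 of 39 passed (0.0101% of all features), 11 were higher and 0 lower at an unadjusted p under 0.05 (8.82% and 7.45% of all features), and the median was 0.22. These values include the arrays that stood apart along the first principal component, of which 4 were of T3-exposed mice.

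Gbp2 came nearest to the threshold. Every T3-exposed TRα1+/m mouse was above every untreated one (36 of 36 pairs), with a change of 0.84 ± 0.22 (adjusted p = 0.183, limma). Stat2 and Iigp1 had changes of 0.62 and 0.70 in these mice (adjusted p = 0.313 and 0.33), and Oasl2 0.73 (adjusted p = 0.361), higher in 35 of 36 pairs. In wild-type mice Cxcl9 had the largest change (0.74 ± 0.30, adjusted p = 0.409), followed by Bst2 (0.59), and mouse 15 held the highest Cxcl9 value. Gbp3, Ifih1 and Rsad2 had T3 changes in TRα1+/m mice of 0.43, 0.01 and 0.10, with 95% intervals of 0.00 to 0.85, -0.36 to 0.37 and -0.49 to 0.68.

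**Figure D4:**
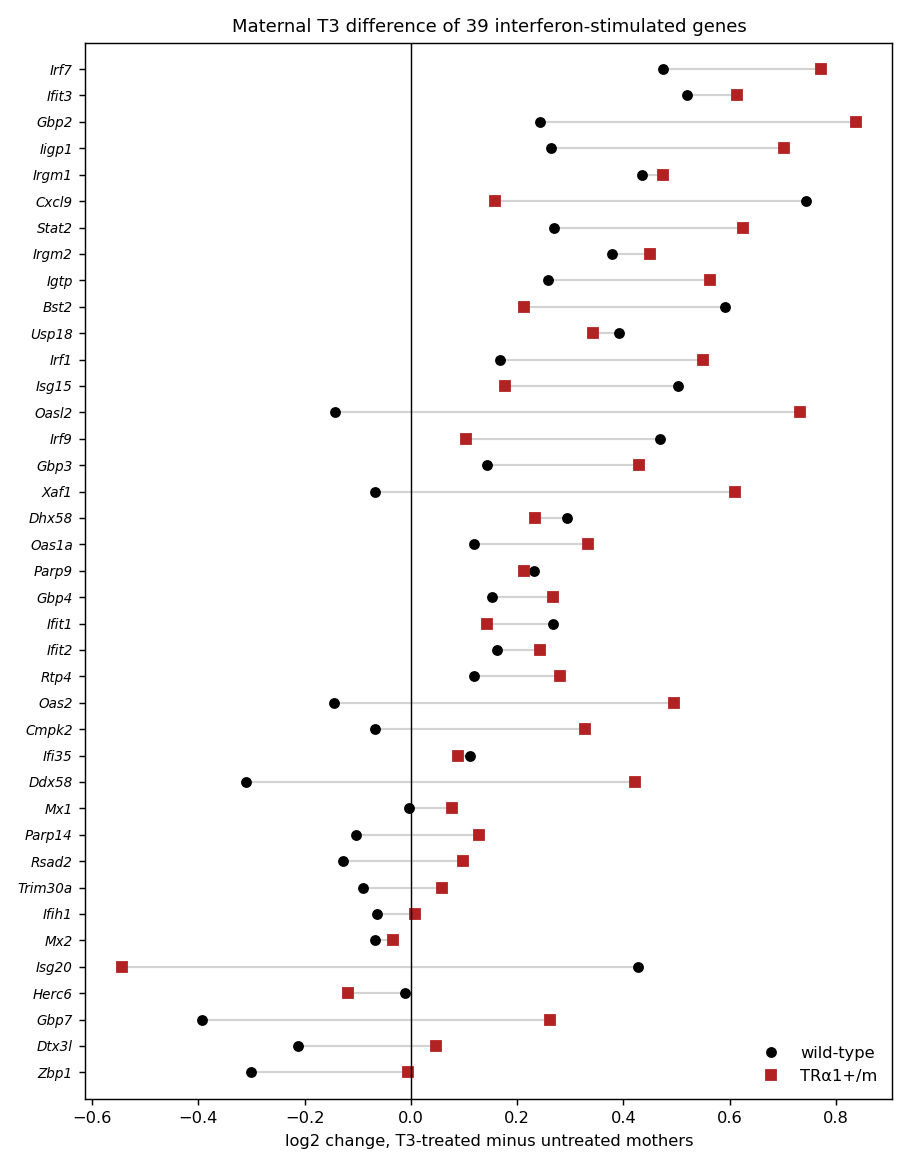
Maternal T3 difference (log2, T3-treated minus untreated mothers, x axis) of the 39 members in wild-type (black circles) and TRα1+/m mice (red squares), ordered by their mean. Most squares lie to the right of 0, with Isg20 at -0.54 the farthest to the left, and no member passed at an adjusted p under 0.05.

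T3-exposed TRα1+/m mice were also set against untreated wild-type mice. In that comparison 4 members were lower (10.3%, against 2.13% of all features) and 0 higher (2.32% of all features) by limma. At an unadjusted p under 0.05, 9 were lower and 1 (Usp18) higher, against 9.69% and 9.25% of all features. The change of Cxcl9 was -1.26 ± 0.30 (adjusted p = 0.0137), that of Gbp3 -0.94 ± 0.21 (adjusted p = 0.00704), that of Rsad2 -1.10 ± 0.28 (adjusted p = 0.0223) and that of Ifih1 -0.84 ± 0.18 (adjusted p = 0.00503). Rsad2 lost its call when mouse 16 or mouse 49 was left out. In separate fits Rsad2 also lost it without the 5 arrays that stood apart (-0.98, adjusted p = 0.0991) and with label numbers above 30 alone (-0.96, adjusted p = 0.093). Gbp2 and Ifit3 had changes of -0.12 and -0.02, with 95% intervals of -0.57 to 0.33 and -0.54 to 0.50. The median of the 39 members was -0.12. This comparison shares mice with those above, so its values are given for themselves.

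Averaged over the 39 members, each centred on its mean over all mice, untreated TRα1+/m mice were low as a group. Their means ran from -0.44 to -0.25, below all untreated wild-type mice (-0.05 to 0.34). T3-exposed wild-type mice ran from 0.02 to 0.71 with mouse 15 highest, and T3-exposed TRα1+/m mice from -0.29 to 0.44 with mouse 16 highest and the next mouse at 0.09. The average is a description and was not tested. In mouse 16, 30 of 39 members were above their own mean, against 5 to 9 in untreated TRα1+/m mice.

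Markers of cell types were also compared by genotype, and the lists differed in direction. Over both treatments 3.7% of all tested features fell and 2.59% rose. Of 14 leukocyte and macrophage markers tested 5 fell over both treatments (C1qb, Cd14, Csf1r, Cx3cr1 and Itgam), all 14 had negative changes, and their median change was -0.48. Csf1r, the receptor for macrophage colony-stimulating factor, was the only 1 of them to fall in untreated mice (-1.06 ± 0.21, adjusted p = 0.00507, limma). Untreated wild-type mice had mean marker levels of 7.95 to 8.32 and untreated mutants of 7.28 to 7.88. With maternal T3 the levels were 8.03 to 8.77 for wild-type mice and 7.43 to 9.16 for mutants. The highest level of each T3-exposed group was that of mouse 15 (8.77, wild-type) and mouse 16 (9.16, TRα1+/m). Each also had the highest average of interferon-stimulated genes in its group. Mouse 48 of the T3-exposed wild-type group had the next highest average there (0.51), with a marker level of 8.25, below the 8.51 of mouse 47. Of 11 endothelial markers 4 fell (Vwf, Tie1, Flt1 and Eng), with mean levels of 11.85 to 12.00, 11.40 to 11.68, 11.52 to 12.13 and 11.33 to 11.78 in the same order of groups. Of 7 fibroblast markers 4 rose (Postn, Col1a2, Col1a1 and Col3a1), with mean levels of 10.78 to 11.38, 11.55 to 12.37, 11.07 to 11.81 and 11.87 to 13.32. The 10 markers of lymphocytes, natural killer cells and plasmacytoid dendritic cells, at mean levels between 4.80 and 5.53 in all mice, had none that passed, and of 8 cardiomyocyte markers 1 fell (Mybpc3). RMA gives no value of 0, so an absent marker cannot be told from a weak one. The part of these cell types in the falls of the members was not tested.

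**Figure D5:**
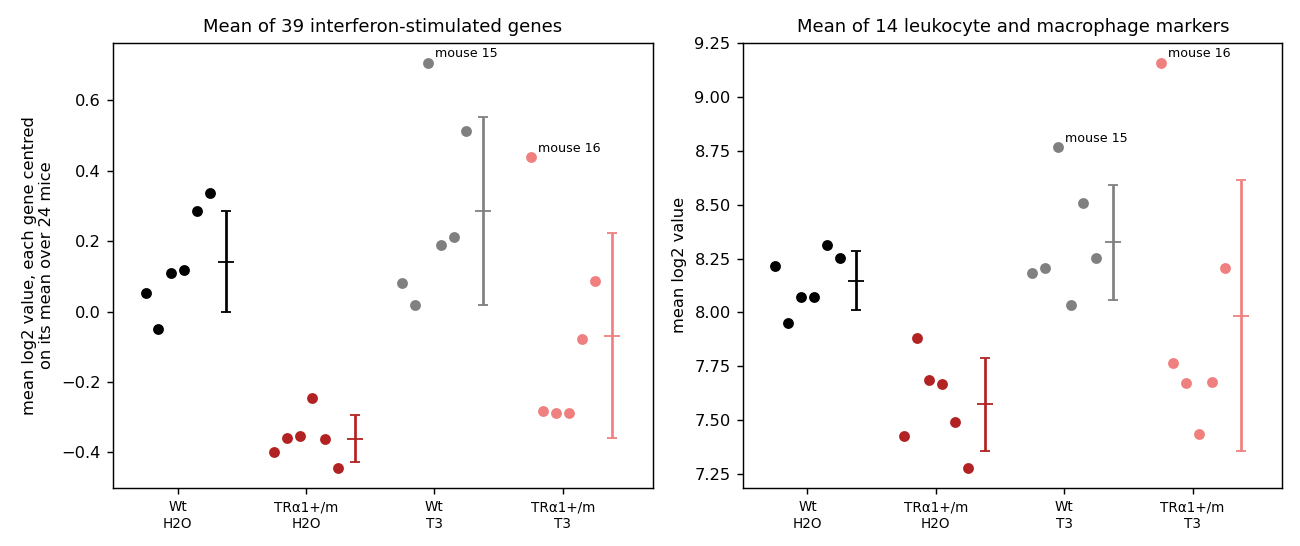
Mean of the 39 members per mouse (left, log2 relative to each gene's mean over 24 mice) and mean log2 value of the 14 leukocyte and macrophage markers (right), with the mean ± SD of 6 mice beside the points of each group (x axis). In both panels untreated TRα1+/m mice lie below untreated wild-type mice, and mice 15 and 16 are the highest of their groups.

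The rest of the pathway was described from lists of genes outside the 45. By genotype over both treatments, 3.7% of all tested features fell and 2.59% rose. Of 13 measured interferon ligand genes 7 were tested. For genotype over both treatments 0 passed (limma, also 0 at an unadjusted p under 0.05, where 9.58% of all features fell and 8.29% rose). Ifnb1 had a change of 0.23 and Ifng of -0.07. Their group means, 4.22 to 4.51 and 4.66 to 4.86, lay just above the filter of 4. At such low values a genotype difference in these 2 transcripts is shown neither to be present nor to be absent. Group means were higher for Ifna5 (7.86 to 8.20), Ifnl3 (5.94 to 6.16) and Ifnl2 (5.28 to 5.33). None of these passed either, which does not show that there is no difference. Of 14 receptor and JAK-STAT genes 2 fell: Ifngr2, a subunit of the interferon gamma receptor (-0.39 ± 0.10, adjusted p = 0.0135), and the phosphatase gene Ptpn11 (-0.46 ± 0.12, adjusted p = 0.013). The type I receptor genes Ifnar1 and Ifnar2 had changes of 0.11 and -0.12. Of 14 sensing and adaptor genes 2 fell, both receptors of endosomal RNA: Tlr3 (-0.65 ± 0.12, adjusted p = 0.000549) and Tlr7 (-0.96 ± 0.22, adjusted p = 0.00698).

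Of 48 other interferon-induced genes tested 6 fell and 0 rose for genotype over both treatments, against 3.7% and 2.59% of all tested features. Slfn5, of the schlafen family, had a change of -1.19 ± 0.12 (adjusted p = 1.03e-07, limma), with wild-type means of 11.40 without and 11.17 with maternal T3, and mutant means of 10.09 in both. The nuclear body gene Sp100 had -0.75 ± 0.10 (adjusted p = 1.64e-05), Ly6e -0.68 ± 0.14 (adjusted p = 0.00164), Slfn8 -0.54 ± 0.14 (adjusted p = 0.0154), Cd274, which encodes PD-L1, -0.70 ± 0.20 (adjusted p = 0.0274) and the tryptophan-degrading enzyme gene Ido1 -0.52 ± 0.15 (adjusted p = 0.0279). Ido1 had a mean above 4 only in untreated wild-type mice (4.08), with 3.30 to 3.64 in the other groups. It was tested only through the group where it was highest, so its counted fall allows no comparison here. The median of these 48 genes was -0.14. In T3-exposed mutants set against untreated wild-type mice, 3 of the 48 were lower and 1 was higher, against 2.13% and 2.32% of all features. Those lower were Slfn5 (-1.30, adjusted p = 2.56e-05, limma), Sp100 (-0.56, adjusted p = 0.0242) and Ido1 (-0.71, adjusted p = 0.0475), with the same limit for Ido1. Ifi27 was higher (1.11, adjusted p = 0.0131). Of the other lists, Tlr3 was lower there (-0.66, adjusted p = 0.0183), and Irf3 (0.71, adjusted p = 0.00717) and Tyk2 (0.50, adjusted p = 0.0336) were higher.

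Variation between mice of the same group was only loosely shared by the members. After the group means were removed, the 741 pairs of members had a median Pearson correlation of 0.22 over 24 mice, 15.9% of pairs were above 0.5 and 25% were negative, while members with all other features had a median of -0.0052. These are descriptions of shared arrays, with no test. Igtp and Irgm2, which lie side by side on chromosome 11, had 0.81, and the neighbours Rsad2 and Cmpk2 had 0.53. Parp14 and Dtx3l, also side by side, had -0.09, and Ifit2 and Ifit3 0.02. Thra, the gene of the mutant receptor, lies on chromosome 11 with 7 of the tested members. Of these, 1 fell (Irf1) over both treatments, and of the 32 tested members on other chromosomes 9 fell, where 3.7% of all tested features fell.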

How the data were processed

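Per the labels, RNA of whole hearts was labelled with biotin and hybridised to Clariom S arrays, and the authors used RMA of the Transcriptome Analysis Console 4.0.1 to give log2 values. RMA corrects background, sets all arrays to 1 distribution and summarises probes, so changes are relative to the other genes. From 28846 probe sets 6640 controls were removed, and 19572 had a symbol, each matched by gene number to RefSeq. The probe set with the highest mean was kept per symbol. A genome build for the probe sets is not given in the sources used here.

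The 4 group means were fitted on all 24 arrays with limma 3.58.1 in R 4.3.3 (lmFit, eBayes), for 19801 features with a mean above 4 in at least 1 group. Adjustment was by Benjamini-Hochberg over all of them, with a threshold of 0.05. P values measure the spread between these mice and take each mouse as independent, because litters are not given. "Over both treatments" averages the genotype contrasts, and the interaction subtracts the T3 change of wild-type mice from that of TRα1+/m mice. Members and lists were chosen with earlier results of these data known. Full values are given for members that passed in any comparison, and for the member with the highest mean in a role with none. Alternatives were other filters, normalisations, eBayes settings, array weights, a block for label number range, subsets of arrays, other thresholds and leaving out each mouse.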

Additional observations from a re-analysis of the deposited data

Results flagged for a closer look

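Of 60 sets of 6 mice examined (the members given with full values and the average over members, in each group), 4 held a mouse far from the other 5 of its group. Chance alone flags about 1 in 20 such sets. Mouse 15 of the T3-exposed wild-type group had a Cxcl9 value of 10.07, where the others lay between 7.82 and 8.57. Mouse 16 of the T3-exposed TRα1+/m group had a Gbp2 value of 9.09 (others 8.24 to 8.37) and an Oasl2 value of 9.54 (others 7.68 to 8.35). Mouse 53 of the untreated TRα1+/m group had an Oasl2 value of 8.00 (others 7.38 to 7.61). Mice 15 and 16 also had the highest leukocyte and macrophage marker levels of their groups, and both are among the 5 arrays that stood apart along the first principal component.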

How the results depend on the processing

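The numbers of members that fell by genotype were 5 without T3, 3 after T3 and 10 over both treatments, and 4 in exposed mutants against untreated wild-type mice. No alternative reversed a change that had passed or a median of the members, while small changes that had not passed could change sign, such as that of Igtp over both treatments without the 5 arrays that stood apart (-0.09 to 0.13) and that of Mx1 with label numbers above 30 alone (0.08 to -0.06). Without T3 the number was 8 with array weights, 8 with only the arrays of the groups compared, 9 without the 5 arrays that stood apart and 3 with label numbers above 30 alone. At an unadjusted p under 0.05 it was 22 without T3, 10 after T3, 20 over both treatments and 9 lower with 1 higher in exposed mutants against untreated wild-type mice. By maternal T3 that threshold gave 5 higher and 1 lower in wild-type, 10 higher in TRα1+/m and 11 higher over both genotypes, and 2 higher and 1 lower for the interaction. The cause of these shifts was not tested, apart from the looser threshold itself. Leaving out each mouse in turn gave 4 to 6 without T3, 3 to 4 after T3, 9 to 13 over both treatments and 3 to 5 in exposed mutants against untreated wild-type mice, with 0 in the maternal T3 and interaction comparisons. The label number range as a block gave 6 without T3 (Irf1 added), 4 after T3 (Rsad2 added) and 10 over both treatments. Shares of all features in the fits with other arrays, weights or the block are not given here. Whether the members alone or all features moved in those fits cannot be told from these counts.

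No paired analysis was possible because the mouse numbers in the labels are not shared between groups. Litters are not given, label ranges are spread unequally over the groups, and RMA values carry no measure of background per probe set, so a lower limit for Cxcl10, Oas3 and Oasl1 cannot be given.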
